A study of Mus musculus with 18 samples.

Results

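The genes described here encode the mitochondrial carriers of glutamate and aspartate and the enzymes that convert these amino acids, measured in cultured neurons from mouse cortex. They are Slc25a22, Slc25a18, Slc25a12, Slc25a13, Slc25a11, Glud1, Got1 and Got2, 8 of the 43629 gene IDs in the count table. All 8 were among the 15671 genes with enough counts to be tested. The genes were listed by symbol, and the set was chosen by the count of Slc25a22, which was lower in Psmb8 than in mSc cultures. The values of that contrast, fitted values and counts of calls included, are given below as a description and support nothing.

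The Psmb8 cultures were transduced with lentivirus to overexpress PSMB8, the β5i subunit of the immunoproteasome. The Psmb5 cultures overexpressed PSMB5, the β5 subunit of the constitutive proteasome that PSMB8 replaces. The mSc cultures overexpressed mScarlet, a red fluorescent protein, as the control. Each group had 6 libraries numbered 1 to 6, and all cultures received virus after 7 days in vitro and were harvested 10 days later. The treatment text of the labels names an Ifng construct for every sample, whereas the treatment tags and the design text name the 3 constructs above. No source used here gives the promoter of the vectors, the share of cells transduced or the strain and age of the animals. Nor do the labels tie a replicate to an animal or a dissection. The p-values thus reflect only how much these libraries vary, and that variation may be technical.

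Library totals ranged from 15337511 to 21074229 counts. Psmb8 stood at 887 ± 198 CPM (read counts scaled to a common library total) in Psmb8 cultures, against 5.03 ± 5.48 in Psmb5 and 6.28 ± 7.76 in mSc cultures. Psmb5 stood at 451 ± 113 CPM in Psmb5 cultures, against 48.3 ± 1.90 in Psmb8 and 42.9 ± 1.49 in mSc cultures (SD, n = 6 each). The 8 neuron markers checked, Map2 and Rbfox3 among them, summed to between 3078 and 3911 CPM in every library. The endothelial marker Cldn5 had no count in any library, and 7 of 9 microglia markers had no count in at least 1 library. Libraries of the same number resembled each other across groups, so the number was used to pair them. The 3 libraries numbered 1 stood apart in astrocyte markers and in vascular and fibroblast markers, and those numbered 3 and 6 in genes induced by interferon: 6 such genes, Ifit1 and Isg15 among them, summed to between 17.0 and 69.1 CPM there and to between 2.94 and 15.5 CPM in the other 12 libraries.

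Glutamate crosses the inner mitochondrial membrane on dedicated carriers. SLC25A22 and SLC25A18 bring it into the matrix together with a proton, while SLC25A12 (aralar) and SLC25A13 (citrin) exchange cytosolic glutamate for matrix aspartate. Inside, GLUD1 turns glutamate into 2-oxoglutarate and ammonium, and GOT2 transfers its amino group to oxaloacetate. GOT1 runs the same transfer in the cytosol, and SLC25A11 exchanges 2-oxoglutarate for malate. Together the aspartate-glutamate carriers, SLC25A11, GOT1, GOT2 and the malate dehydrogenases form the malate-aspartate shuttle, which carries reducing equivalents into mitochondria and is the main such route in neurons. In people, recessive variants of SLC25A22 cause an epilepsy of early infancy, and in the brain GLUD1 is known to be abundant in astrocytes.

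Slc25a22 lies on the minus strand of chromosome 7 and Glud1 on the plus strand of chromosome 14. Their promoter windows are shown because Slc25a22 is the gene that chose the set and Glud1 is 1 of the 2 members that stood apart in the libraries numbered 1. The windows are RefSeq's on GRCm38.p6, at chr7:141437875-141438124 and chr14:34310477-34310726, written 5′ to 3′ on the strand of each gene. Capitals mark the GC box GGGCGG or its reverse complement CCGCCC.
Slc25a22: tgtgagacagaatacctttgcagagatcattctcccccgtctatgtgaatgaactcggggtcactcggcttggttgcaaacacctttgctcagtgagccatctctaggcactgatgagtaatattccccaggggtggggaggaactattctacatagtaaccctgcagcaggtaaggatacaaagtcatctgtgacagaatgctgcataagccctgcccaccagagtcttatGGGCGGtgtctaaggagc
Glud1: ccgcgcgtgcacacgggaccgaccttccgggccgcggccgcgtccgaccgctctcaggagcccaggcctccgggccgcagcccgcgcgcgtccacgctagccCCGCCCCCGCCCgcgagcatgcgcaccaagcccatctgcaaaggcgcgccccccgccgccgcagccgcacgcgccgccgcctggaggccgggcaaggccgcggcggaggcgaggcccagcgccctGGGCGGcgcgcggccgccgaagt
The Slc25a22 window, the nearest to the annotated gene start of 3 in the table, was 50% G or C with 4 CpG dinucleotides. The Glud1 window was 82% G or C with 46, against medians of 52.4% and 6 over 32851 windows. The GC box occurred 1 time in the Slc25a22 window, 1 time in that of Slc25a11 and 3 times in that of Glud1, and 32.7% of all windows held it on either strand. The CCAAT box (CCAAT) occurred 5 times in the Got1 window and 1 time each in those of Slc25a13 and Slc25a11, and 33.8% of all windows held it. The TATA box (TATAAA) was found in the windows of Slc25a18 and Got2 and in 12.4% of all windows. The cyclic AMP response element (TGACGTCA), held by 1.55% of all windows, was in none of the 8. These matches describe letters and not bound sites. The Slc25a11 window lay wholly within the annotated gene, and those of Slc25a22, Slc25a18 and Got2 lay in part within theirs. For Slc25a18 and Slc25a12 the bases that follow the window were not found near the start of an annotated transcript.

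Per kilobase of principal transcript, the 2 carriers of each pair stood far apart. In mSc cultures the order was Slc25a22 at 109 ± 7.28 CPM per kb, Got2 at 83.7 ± 7.08, Got1 at 59.3 ± 3.88, Glud1 at 47.8 ± 16.1, Slc25a11 at 41.1 ± 2.91, Slc25a12 at 22.2 ± 1.22, Slc25a18 at 3.40 ± 1.89 and Slc25a13 at 0.49 ± 0.12 (SD, n = 6). The level of Glud1 was above that of Slc25a11 in 10 of 18 libraries, so these neighbours did not differ beyond their spread. Got1 was above Glud1 in 15 of 18 libraries and Slc25a22 above Got2 in 17. The remaining neighbours kept their order in all 18 libraries, but Got2 was above Got1 in 0 of 18 when the union of all exons served as the length. Slc25a22 was above Got2 in 13 of 18 on that length.

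The ratio of Slc25a22 to Slc25a18 per kb had its lowest, median and highest value at 11.5, 34.9 and 44.0 in Psmb8 cultures, 13.96, 45.7 and 55.7 in Psmb5 cultures and 13.6, 44.3 and 49.4 in mSc cultures. The ratio of Slc25a12 to Slc25a13 per kb was 36.4, 44.7 and 73.5 in Psmb8 cultures, 29.2, 42.5 and 49.0 in Psmb5 cultures and 37.3, 43.6 and 72.0 in mSc cultures. These cultures thus held mostly transcript of Slc25a22 among the glutamate carriers and of Slc25a12 among the aspartate-glutamate carriers.

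**Figure D1:**
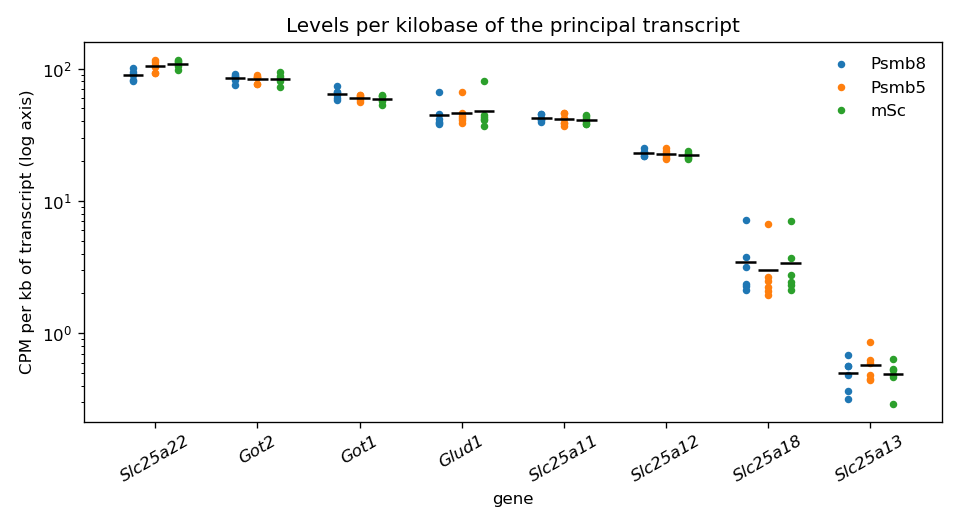
Level of each gene in CPM per kilobase of its principal transcript (log axis), with 1 point per library and a black bar for the mean of each group (Psmb8, Psmb5, mSc; n = 6 each). Slc25a22 stands highest in mSc cultures at 109 CPM per kb and Slc25a13 lowest at 0.49 CPM per kb.

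Slc25a22 (ENSMUSG00000019082, chromosome 7, 141429744 to 141437892, minus strand, GRCm38) was the member on which the set was chosen. Its level was 230, 283, 254, 225, 263 and 252 CPM in Psmb8 libraries 1 to 6. In Psmb5 libraries it was 261, 328, 288, 261, 315 and 298 CPM, and in mSc libraries 272, 327, 302, 313, 323 and 295 CPM. The Psmb8 libraries numbered 1, 3, 4, 5 and 6 lay below every mSc library, and Psmb8 library 2 lay above mSc library 1, so that the groups overlapped.

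Means of Slc25a22 were 251 ± 21.3 CPM in Psmb8 cultures, 292 ± 27.8 in Psmb5 cultures and 305 ± 20.5 in mSc cultures (SD, n = 6 each). The Psmb8 mean was 0.823 times the mSc mean. Within pairs of the same number the Psmb8 library was lower than the mSc library in 6 of 6, by a log2 difference of -0.28 ± 0.10 (mean ± SD). The largest difference was -0.48 in number 4 and the smallest -0.21 in number 2. Of all genes tested, 2.5% were lower in every such pair.

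Fitted with edgeR, the log2 fold change of Slc25a22 in Psmb8 against mSc cultures was -0.28 (SE 0.07) without the replicate number as a block and -0.28 (SE 0.04) with it. Without the block 0 of the 8 members passed an adjusted p of 0.05, where 0.00638% of all genes did. With it 1 of 8 passed, which was Slc25a22, against a background of 0.325% of all genes in either direction and 0.211% lower. Nothing is read from these counts, since the contrast chose the gene. Without the libraries numbered 3 and 6 the count with the block was 0 of 8, and the log2 fold change of Slc25a22 was -0.31. The share of all genes called in that fit was not counted.

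Got1 (ENSMUSG00000025190, chromosome 19), the cytosolic aminotransferase, stood on the other side of the same contrast. Its lowest, median and highest level was 119, 133 and 152 CPM in Psmb8 cultures, 114, 126 and 130 CPM in Psmb5 cultures and 109, 124 and 130 CPM in mSc cultures. The Psmb8 library was above the mSc library in 6 of 6 pairs, by 0.12 ± 0.07 on the log2 scale, with overlapping groups. Of all genes, 3.18% were higher in every pair.

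Slc25a12 (ENSMUSG00000027010, chromosome 2) was also higher in 6 of 6 pairs, by 0.06 ± 0.04, at 147 ± 7.52 CPM in Psmb8 and 141 ± 7.74 CPM in mSc cultures. For the other shuttle genes the mean pair difference was 0.04 ± 0.04 for Slc25a11 (ENSMUSG00000014606, chromosome 11) and 0.02 ± 0.05 for Got2 (ENSMUSG00000031672, chromosome 8). Glud1 (ENSMUSG00000021794, chromosome 14) was lower in 4 of 6 pairs, with a mean difference of -0.06 ± 0.16. Neither Slc25a18 (ENSMUSG00000004902, chromosome 6), at 0.03 ± 0.13, nor Slc25a13 (ENSMUSG00000015112, chromosome 6), at 0.01 ± 0.29, had pairs on 1 side only. Over the 8 members the median log2 fold change with the block was 0.026, beside 0.00081 over all genes tested.

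**Figure D2:**
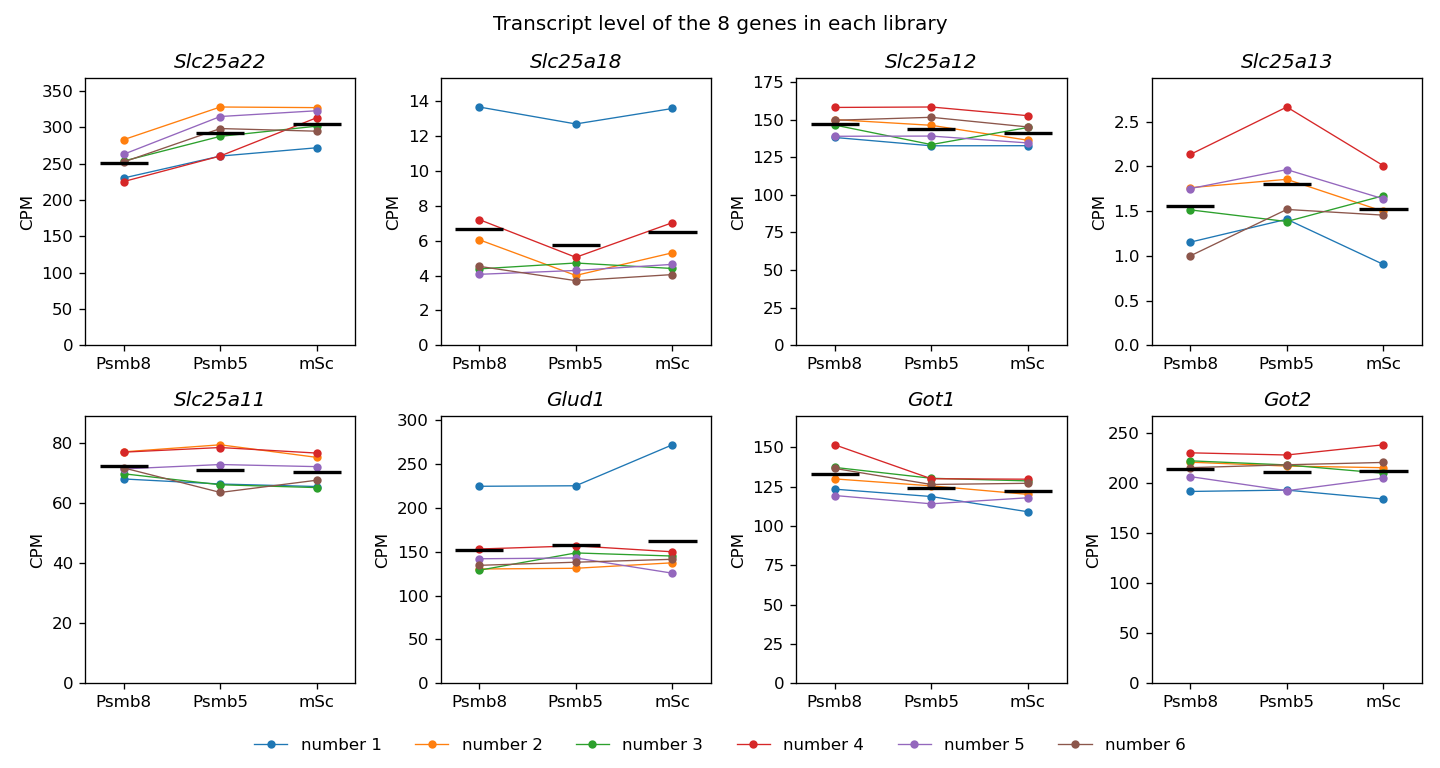
Level of the 8 genes in CPM in each library, from Psmb8 through Psmb5 to mSc cultures, with lines joining libraries of the same replicate number and black bars for group means (n = 6 each). The Psmb8 mean of Slc25a22 is 251 CPM, against 305 CPM in mSc, and the libraries numbered 1 stand above all others for Slc25a18 and Glud1.

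Markers of cell types were set beside the lower Slc25a22 level. The 10 excitatory neuron markers differed between Psmb8 and mSc cultures of the same number by -0.02 ± 0.05 in mean log2 CPM and summed to between 1471 and 1921 CPM in Psmb8 and between 1589 and 2204 CPM in mSc libraries. Their sum, which weighs abundant markers most, was lower in Psmb8 than in mSc libraries in 6 of 6 pairs, at 0.871 to 0.977 times. It was also lower in Psmb8 than in Psmb5 libraries in 6 of 6 pairs, at 0.947 to 0.975 times. The direction of the sum was that of Slc25a22 in both comparisons. With the block, however, 6 of the 10 markers had a log2 fold change above 0 in each comparison, and 4 below. In mean log2 CPM they differed between Psmb8 and Psmb5 cultures by -9.1e-06 ± 0.06. The 10 inhibitory neuron markers differed between Psmb8 and mSc cultures by 0.23 ± 0.25, higher in 4 of 6 pairs. They summed to between 459 and 906 CPM in Psmb8 and between 370 and 706 CPM in mSc libraries. With the block 9 of these 10 had a log2 fold change above 0 and 1 below. The 12 astrocyte markers differed by -0.04 ± 0.12, with 9 below 0 and 3 above in the blocked fit. The 9 tested oligodendrocyte lineage markers had log2 fold changes below 0 with the block in both comparisons of Psmb8. Their mean pair difference was -0.12 ± 0.31 against mSc, lower in 3 of 6 pairs, and -0.09 ± 0.34 against Psmb5, lower in 2 of 6. The part of these lists in the level of Slc25a22 was not tested. In bulk RNA, fewer cells of a type and less RNA per cell cannot be told apart.

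Overexpression of PSMB5 was compared with the same mSc libraries, which are also those of the contrast that chose the set. Slc25a22 was lower in 4 of 6 pairs, and its fitted difference on the log2 scale was -0.07 (SE 0.07, adjusted p = 1.0). The 95% interval ran from -0.21 to 0.08 without the block and from -0.15 to 0.01 under the block (adjusted p = 0.76). The number 4 pair gave -0.27, and no other pair exceeded 0.07 in size. A change within these intervals was not detected here, which does not show that the level was equal.

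Among the other carriers, Slc25a18 was lower in 5 of 6 Psmb5 to mSc pairs, at 3.71, 4.50 and 12.7 CPM in Psmb5 cultures and 4.05, 4.97 and 13.6 CPM in mSc cultures (lowest, median and highest). Its fitted log2 fold change was -0.17 (SE 0.37), with an adjusted p of 1.0. Slc25a13 was higher in 5 of 6 pairs, at 1.38, 1.69 and 2.66 CPM in Psmb5 cultures and 0.90, 1.57 and 2.01 CPM in mSc cultures, with a log2 fold change of 0.23 (SE 0.22) and an adjusted p of 1.0. Slc25a13 had between 14 and 47 counts per library, so counting error is a large part of its spread.

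The log2 fold changes of Slc25a12, Slc25a11, Glud1, Got1 and Got2 lay between -0.04 and 0.03 in Psmb5 against mSc cultures. By edgeR's quasi-likelihood test 0 of 8 members passed with or without the block, where 0.00638% of all genes passed in each fit. None of the 8 lay on 1 side in 6 of 6 pairs, where 2.2% of all genes were lower and 2.04% higher in every pair. The count at an unadjusted p under 0.05 was also 0 of 8 in both fits, where 0.944% of all genes had such a p without the block and 6.87% with it. DESeq2 and limma-voom called 0 as well. The median over the members was 0.0041 on the log2 scale, beside 0.00089 over all genes.

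Set directly against each other, Psmb8 cultures had less Slc25a22 transcript than Psmb5 cultures in 6 of 6 pairs, by -0.21 ± 0.03 on the log2 scale. The pair differences ran from -0.26 to -0.18, while the group ranges overlapped. These Psmb8 libraries also chose the gene, so the difference and the counts that follow describe it and nothing is read from them. Without the block 0 of 8 members passed and 0.0128% of all genes did. With the block the count was 1 of 8, Slc25a22, against 0.0383% of all genes. It was 0 on leaving out any 1 replicate number other than 4, where the share of all genes called was not counted.

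The other 7 members were not the basis of the choice. Got1 was higher in Psmb8 than in Psmb5 cultures in 6 of 6 pairs, as were 2.3% of all genes, with a log2 fold change of 0.10 (SE 0.06) and an adjusted p of 1.0 that was 0.48 with the block. Glud1 was lower in 6 of 6 pairs, as were 2.23% of all genes, at -0.05 (SE 0.19, adjusted p = 1.0). Its pair differences ran from -0.21 in number 3 to -0.0037 in number 1, and were -0.0090 in number 2 and -0.0097 in number 5. For Slc25a18 the log2 fold change was 0.21 (SE 0.37), for Slc25a13 -0.21 (SE 0.22), and for Slc25a12, Slc25a11 and Got2 between 0.02 and 0.03. None of the 7 passed the adjusted threshold in either fit, and the count at an unadjusted p under 0.05 was 0 without the block and 2 with it, Slc25a18 and Got1, where 1.33% and 7.64% of all genes had such a p. DESeq2 and limma-voom, with and without the block, called none of the 7.

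**Figure D3:**
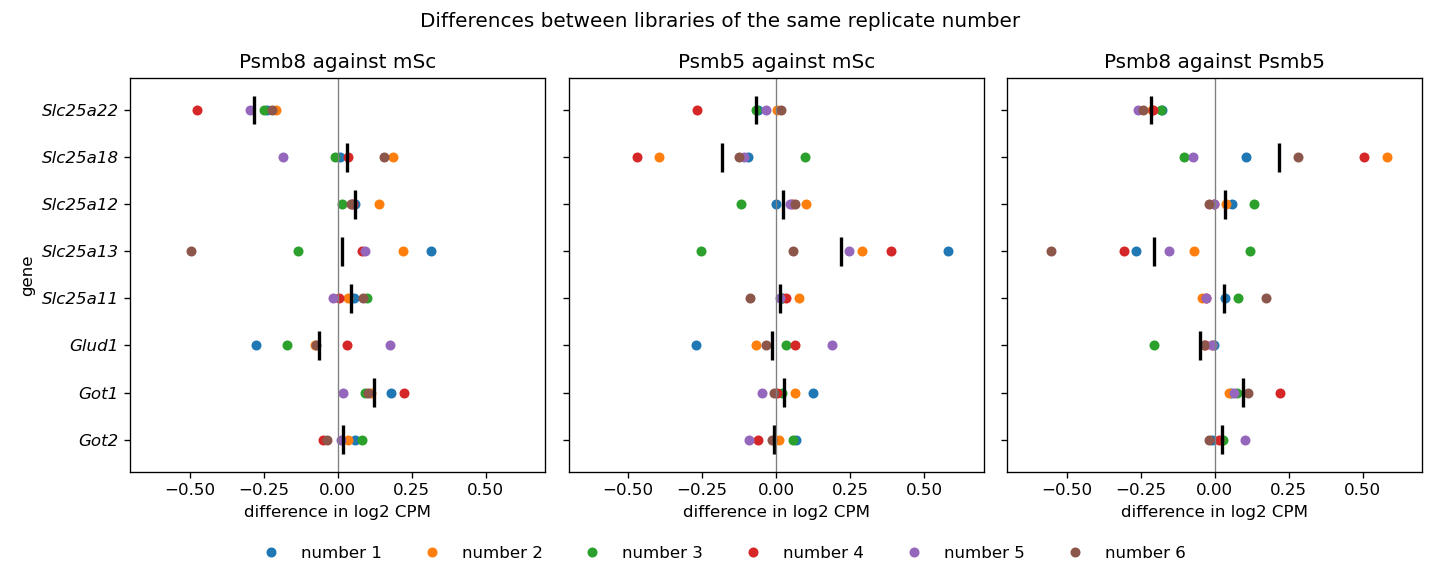
Difference in log2 CPM between libraries of the same replicate number for the 8 genes, with 1 coloured point per number and a black bar for the mean of 6 pairs, in Psmb8 against mSc, Psmb5 against mSc and Psmb8 against Psmb5. All 6 points of Slc25a22 lie below 0 in both comparisons of Psmb8, and all 6 points of Got1 lie above 0 in both.

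Differences between replicate numbers do not use the contrast that chose the set. In a model with group and number, all 8 members differed between numbers (edgeR quasi-likelihood F test, Benjamini-Hochberg adjusted p from 2.8e-09 for Slc25a18 to 0.013 for Slc25a13), as did 64.3% of all genes. The share of the variance of log2 CPM that lay between numbers was 93.8% for Glud1, 93.6% for Slc25a18, 90.8% for Got2, 85.4% for Slc25a11, 76.5% for Slc25a12, 74.3% for Slc25a13 and 64.6% for Got1. Slc25a22 was the exception within the set, with 38.2% between numbers and 54.3% between groups, and its choice used the groups. These shares of variance were not computed over all genes.

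Slc25a18, the second glutamate carrier, was at 13.7, 12.7 and 13.6 CPM in the Psmb8, Psmb5 and mSc libraries numbered 1 and between 3.71 and 7.21 CPM in the other 15. Glud1 was at 225, 225 and 272 CPM in the libraries numbered 1 and between 126 and 157 CPM elsewhere. All 3 libraries of number 1 lay above the other 15 for both genes, with ratios of means of 2.72 and 1.71. The share of all genes placed in this way was not counted, and 64.3% of all genes differed between numbers. The 12 astrocyte markers, of which Gjb6 had no count in some library, summed to between 2422 and 2937 CPM in number 1 and to between 1148 and 1526 CPM elsewhere, a ratio of 2.01. The 10 vascular and fibroblast markers, of which 5 were tested and Cldn5 had no count, summed to between 41.0 and 54.2 CPM in number 1 and to between 13.7 and 31.4 CPM elsewhere, a ratio of 2.10. Oligodendrocyte lineage markers had a ratio of 1.62 and inhibitory neuron markers 1.49, with ranges that overlapped those of the other numbers. The part of these lists in the levels of Slc25a18 and Glud1 was not tested.

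The other 6 members had their lowest mean in number 1. How many of all genes were lowest there was not counted. Slc25a22 averaged 254 CPM there and 313 CPM in number 2, where it was highest. Slc25a12, Slc25a13, Slc25a11, Got1 and Got2 were each highest in number 4, at means of 156, 2.27, 77.3, 137 and 232 CPM, against 134, 1.16, 66.6, 117 and 189 CPM in number 1.

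Without number 1, 6 of 8 members still differed between numbers and 55.9% of all genes did. The calls of Glud1 and Slc25a13 were lost there, with adjusted p = 0.064 and 0.062, while Slc25a18 kept an adjusted p of 0.010. Without number 4 it was 6 of 8 and 57.4% of all genes, and the calls of Slc25a12 and Slc25a13 were lost, with adjusted p = 0.075 and 0.17. Leaving out each of the other 4 numbers in turn left all 8 called, and between 57% and 62.4% of all genes. On all 18 libraries DESeq2's likelihood ratio test did not call Slc25a13 (adjusted p = 0.074), where it called 59% of all genes.

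**Figure D4:**
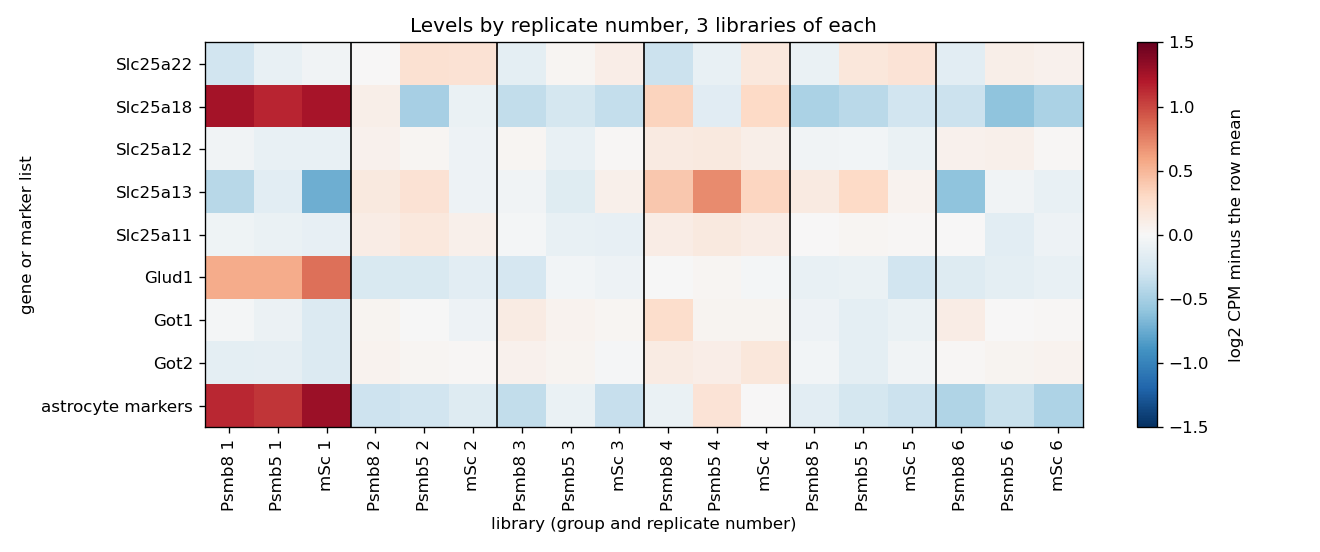
Log2 CPM of each gene, and the mean log2 CPM of 12 astrocyte markers, minus the mean of the row, in the 18 libraries ordered by replicate number and within it from Psmb8 through Psmb5 to mSc. Slc25a18, Glud1 and the astrocyte markers are high in the 3 libraries numbered 1, where the ratio to the other libraries is 2.72, 1.71 and 2.01.

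Some members share sequence with neighbours or copies, and no source used here says whether counting used strand. Slc25a18 overlaps Atp6v1e1 on the opposite strand over 32 exon bases, 1.67% of its exons, and Atp6v1e1 had 0.874 times its level of the other libraries in number 1. Over all libraries Atp6v1e1 had 60605 counts, against 1980 for Slc25a18. Whether reads of Atp6v1e1 entered the count of Slc25a18 was not tested. Slc25a11 shares 189 exon bases, 8.92%, with Rnf167 on the opposite strand, which had 21392 counts, against 22838 for Slc25a11. The pseudogene Got2-ps1 had 53 counts over all libraries, against 67886 for Got2.

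Genes whose pattern was most like that of Slc25a22 were sought among 11549 genes with a mean of 5 CPM or more, over 18 libraries after the mean of each replicate number was taken off. They were Ppp2r1a (Pearson r = 0.97), a scaffold subunit of protein phosphatase 2A, Arhgap33 (0.97), Lsm11 (0.97), a part of the U7 snRNP that processes histone transcripts, Kctd13 (0.96), an adaptor of a cullin ubiquitin ligase, and Sowaha (0.94). Lsm11 averaged 81.4 CPM in Psmb8, 104 in Psmb5 and 109 in mSc cultures. Arhgap33 averaged 317 CPM in Psmb8, 365 in Psmb5 and 394 in mSc cultures. Both had the order of groups seen in Slc25a22, whose r with Got1 was -0.82. With the mean of each number taken off, the differences between groups remained, the contrast that chose Slc25a22 among them. The shared order thus follows from how these genes were picked, and nothing is read from it or from the r with Got1.

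Most like Slc25a18, over the 18 libraries as they stand, were Dbi (r = 0.95), which encodes acyl-CoA binding protein, Sfxn5 (0.94), Pea15a (0.94), Cox4i1 (0.94), a subunit of cytochrome c oxidase, and Hadhb (0.93), a part of the mitochondrial trifunctional protein of fatty acid oxidation. Dbi averaged 340 CPM in number 1 and 124 CPM in the other numbers. Glud1 had r = 0.90 with Slc25a18, rank 32 of 11549. These values rest largely on number 1: without its libraries r was 0.68 for Dbi and 0.37 for Glud1.

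The wider glutamate and shuttle pathways were followed in 5 lists with 105 tested genes of 109. By edgeR's test with or without the block 0 of 105 passed the adjusted threshold in each of the 3 comparisons. In Psmb8 against mSc cultures with the block, 16 of 105 had an unadjusted p under 0.05, 12 higher and 4 lower, or 15.2%, beside 10.7% of all genes. Without the block the count was 2 of 105, or 1.90%, beside 2.17% of all genes. The median log2 fold change was 0.028 with the block, beside 0.00081 over all genes.

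Mdh1, the cytosolic malate dehydrogenase that works with Got1, had the smallest p of the shuttle partners. It averaged 321 ± 21.4 CPM in Psmb8 cultures and 292 ± 14.8 CPM in mSc cultures (SD, n = 6 each), higher in 6 of 6 pairs. Its log2 fold change was 0.14 (SE 0.05, adjusted p = 1.0), and with the block the adjusted p was 0.069. DESeq2 with the block was the only setting to call it (adjusted p = 0.00703). Against Psmb5 cultures, with 298 ± 12.6 CPM, Mdh1 was likewise higher in 6 of 6 pairs, at 0.11 (SE 0.05, adjusted p = 1.0, or 0.36 with the block).

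In the other lists the genes with the smallest p in Psmb8 against mSc cultures did not pass either. Slc17a6, a vesicular glutamate transporter, was at 34.0 ± 5.13 CPM in Psmb8 and 30.9 ± 7.26 CPM in mSc cultures. Gad2, which makes GABA from glutamate, was at 149 ± 41.7 CPM in Psmb8 and 134 ± 24.4 CPM in mSc cultures. Idh3a, a subunit of the mitochondrial isocitrate dehydrogenase, was at 130 ± 7.73 CPM in Psmb8 and 122 ± 5.22 CPM in mSc cultures. Among the remaining SLC25 carriers, Slc25a46 was at 66.2 ± 5.88 CPM in Psmb8 and 60.2 ± 2.46 CPM in mSc cultures. Their adjusted p with the block ran from 0.24 for Gad2 to 0.46 for Slc17a6.

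In Psmb5 against mSc cultures 6 of 105 genes, or 5.71%, had an unadjusted p under 0.05 with the block, beside 6.87% of all genes, and 0 without it. Nat8l, which makes N-acetylaspartate, was lower in 6 of 6 pairs, as were 2.2% of all genes, at 211 ± 25.9 CPM in Psmb5 and 225 ± 28.5 CPM in mSc cultures (log2 fold change -0.09, SE 0.09, adjusted p = 1.0, or 0.65 with the block). Idh1, the cytosolic isocitrate dehydrogenase, was at 61.8 ± 16.0 CPM in Psmb5 and 54.8 ± 13.9 CPM in mSc cultures. Gpd1, Slc38a3 and Slc25a33 had the smallest p of their lists, with log2 fold changes of 0.12, 0.08 and 0.14 that did not pass.

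In Psmb8 against Psmb5 cultures 8 of 105 genes, or 7.62%, had an unadjusted p under 0.05 with the block, beside 7.64% of all genes, and 0 without it. Gad1, the other glutamate decarboxylase, was higher in 6 of 6 pairs, at 293 ± 69.0 CPM in Psmb8 and 254 ± 41.8 CPM in Psmb5 cultures (log2 fold change 0.21, SE 0.15, adjusted p = 1.0, or 0.24 with the block). Without the libraries numbered 4 the blocked edgeR fit called Gad1 higher in Psmb8 than in Psmb5 cultures (0.23, SE 0.04, adjusted p = 0.031). It also called Gad1 higher in Psmb8 than in mSc cultures (0.21, SE 0.04, adjusted p = 0.033). On all 18 libraries the blocked edgeR fit did not call Gad1 in Psmb8 against mSc cultures (0.15, SE 0.05, adjusted p = 0.28). The share of all genes called without number 4 was not counted. The inhibitory neuron markers were higher in 5 of 6 Psmb8 to Psmb5 pairs, by 0.26 ± 0.25. With the block 9 of the 10 had a log2 fold change above 0 and 1 below. Their part in the level of Gad1 was not tested. Slc1a3, a glutamate transporter of astrocytes, was at 431 ± 190 CPM in Psmb8 and 490 ± 217 CPM in Psmb5 cultures, lower in 5 of 6 pairs. Astrocyte markers differed by -0.09 ± 0.17 in mean log2 CPM there, lower in 4 of 6 pairs. Their sum was lower in 5 of 6 pairs. With the block 11 of the 12 had a log2 fold change below 0 and 1 above. Their part in the level of Slc1a3 was not tested. Idh3g and Slc25a51 had log2 fold changes of 0.07 and -0.07 and did not pass.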

How the data were processed

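Gene transcripts were measured by sequencing of poly(A)-enriched libraries, per the labels' protocols. The authors deposited 1 table of raw counts per Ensembl gene with 1 column for each of 18 libraries, none pooled. STAR 2.4, DESeq2 and the builds GRCm39 and mm10 are named with no role, per the submitters' processing notes. No source used here gives the gene counter, its strand setting, its treatment of reads with several matches or the annotation. Of 43629 gene IDs, 42462 were matched to a symbol and 1167 were not. Positions and lengths came from GENCODE M21 on GRCm38 and may differ from the build behind the counts.

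The test of the counts was that of edgeR 4.0.16 (R 4.3.3): filterByExpr by group, TMM scaling and the quasi-likelihood test on 1 fit of 18 libraries, with Benjamini-Hochberg adjustment over 15671 genes at 0.05. CPM values use TMM-scaled library sizes, and log2 CPM a prior count of 2. Standard errors come from the quasi-likelihood F statistic. Pairing by replicate number was checked on deviations from the group means: 18 same-numbered pairs correlated at r from 0.45 to 0.73 (mean 0.60), and 90 other pairs at a mean of -0.12. Deviations within a group sum to 0, so the mean of the other pairs follows from that of the same-numbered pairs and adds nothing. From the same-numbered values the numbers were taken to pair libraries, and blocked values are given where they bear on a call. edgeR's common coefficient of variation came to 17.9% unblocked and 5.94% blocked. Counts of 45 library pairs within groups differed by more than sampling noise (chi-square per degree of freedom 2.80 to 35.3). The tests were run on simulated data with known changes. These were larger than the members' log2 fold changes over the 18 libraries and lay in genes of higher count than Slc25a13. The simulation therefore does not show how well changes as small as those described here are found.

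The members, the 5 pathway lists, the marker lists and the interferon genes were chosen with earlier results of these data known. Named genes were the 8 members, the overexpressed genes, per list and comparison the genes called or, where none was, the one with the smallest p in the blocked fit, and the 5 genes most like Slc25a22 and Slc25a18. Alternatives were the replicate block, DESeq2's size factors, DESeq2 1.42.0, limma-voom of limma 3.58.1, no filter, a mean of at least 5 CPM, the 2 groups alone, library sizes without Psmb5 and Psmb8, and libraries or numbers left out. Other tools within the blocked fit were added after seeing the data.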

Additional observations from a re-analysis of the deposited data

Results flagged for a closer look

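Each gene was examined for a single distant library in each group of 6, which gave 24 sets of values, and 6 held a library whose gap to its nearest neighbour was a larger share of the whole range than Dixon's critical value. Chance gives about 1 such set in 20. All 6 concerned replicate 1. Slc25a18 in replicate 1 stood at 13.7 CPM in Psmb8, 12.7 CPM in Psmb5 and 13.6 CPM in mSc cultures, and the nearest other library of the same group was at 7.21, 5.04 and 7.03 CPM. Glud1 in replicate 1 stood at 224.8 CPM in Psmb8, 225.4 CPM in Psmb5 and 272 CPM in mSc cultures, and the nearest other library was at 153, 157 and 150 CPM. The 24 sets are not independent, since libraries of the same number resembled each other across groups.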

How the results depend on the processing

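With the replicate block the count of members called was 1 in Psmb8 against mSc and 1 in Psmb8 against Psmb5 cultures, against 0 without it, and it was 1 in both under each of the 4 blocked alternatives added after seeing the data (DESeq2's test, limma-voom, DESeq2's size factors, only the 2 groups). It was 0 in both with the block and without the libraries numbered 3 and 6. Leaving out libraries or numbers gave 0 to 1 in both. Pathway genes called numbered 1 (Mdh1) in Psmb8 against mSc cultures under blocked DESeq2, and 0 to 1 on leaving out libraries or numbers in both comparisons of Psmb8; the 1 without number 4 was Gad1 in both. The cause was not tested. Psmb5 against mSc gave 0 under every alternative. For alternatives to the group comparisons other than the block itself, the share of all genes called was not counted. Nothing is therefore read from those counts. Members called by number ranged from 6 to 8.

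Of 1206 alternatives to log2 fold changes of single genes, 41 turned direction, over 17 of 39 differences, all but 1 of the 41 on leaving out a library or number. Of the 1206, 19 were called where the fit without the block called 0, and 17 of these were Slc25a22. The turn of direction that did not come from leaving out 1 library or 1 number was that of Slc25a11 in Psmb8 against Psmb5 cultures. It stood at -0.016 with the block and without numbers 3 and 6. On leaving out libraries or numbers, the range in Psmb8 against mSc was -0.30 to 0.38 for Slc25a18, -0.092 to 0.12 for Slc25a13, -0.23 to 0.12 for Glud1, -0.023 to 0.052 for Got2 and -0.024 to 0.25 for Gad2. In Psmb5 against mSc the range was -0.57 to 0.18 for Slc25a18, -0.0043 to 0.053 for Slc25a12, -0.019 to 0.046 for Slc25a11, -0.17 to 0.17 for Glud1, -0.0082 to 0.047 for Got1, -0.047 to 0.029 for Got2 and -0.036 to 0.28 for Slc38a3. In Psmb8 against Psmb5 it was -0.13 to 0.61 for Slc25a18, -0.0032 to 0.061 for Slc25a11, -0.19 to 0.084 for Glud1, -0.0028 to 0.054 for Got2 and -0.47 to 0.10 for Slc1a3. Slc25a22 in Psmb8 against mSc ranged from -0.32 to -0.24. Depth limits Slc25a13 most, at 14 to 47 counts.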
